A study of Mus musculus with 8 samples.

Results

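The matrix metalloproteinases (Mmp genes), their tissue inhibitors (Timp genes) and the ADAMTS proteases with their ADAMTS-like relatives (Adamts and Adamtsl genes) were followed in prostate tumours grown in aged and in young mice. Members were all genes whose symbol was Mmp with a number, Timp1 to Timp4, or Adamts or Adamtsl with a number. They came to 51 of the 24028 genes in the tables, namely 23 Mmp, 4 Timp, 19 Adamts and 5 Adamtsl genes. RNA was sequenced from 4 tumours of aged hosts (20 to 24 months old, 19 injected) and 4 tumours of young hosts (4 months old, 20 injected). Every host was an immune-competent male C57BL/6 mouse that had received an implant of 1 M TRAMP-C2 cells into the dorsolateral prostate, with harvest between day 30 and day 45. TRAMP-C2 is one established line of prostate adenocarcinoma from a TRAMP mouse, a strain in which a viral oncogene is driven by a prostate promoter. The injected cells thus had the same origin in both groups, which were set apart by the age of the host. Each tumour is named by its host's age and mouse number, and 4 values in a row follow the order aged 46, 47, 50 and 51 or young 36, 37, 40 and 43. How these tumours were chosen among the injected hosts is not given in the sources used here.

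Matrix metalloproteinases are zinc enzymes that are made as inactive precursors, are secreted or held at the cell surface, and cut collagens, laminins, proteoglycans and many signalling proteins. The tissue inhibitors bind the active site of these enzymes, and Timp3, which attaches to the matrix, also inhibits ADAM and ADAMTS enzymes. ADAMTS proteases are secreted and fall into groups that cut proteoglycans such as versican, trim procollagens, or cleave von Willebrand factor. ADAMTS-like proteins share the accessory domains of that family but carry no protease domain. In solid tumours much of the matrix metalloproteinase RNA is known to come from fibroblasts, macrophages and neutrophils as well as from the cancer cells. These tumours were sequenced in bulk, so fewer cells of a type and less RNA per cell cannot be told apart in any value given here.

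Libraries held 27054498 to 35729488 fragments, and 3 fragments corresponded to 0.084 to 0.111 CPM, the count scaled to the total of its library. The p-values below measure the spread between these tumours, each from its own host. Summed markers of epithelium ranged over 150 to 738 CPM in aged hosts and 78.6 to 470 CPM in young hosts, and those of fibroblasts over 4871 to 11253 CPM in aged hosts and 8592 to 15491 CPM in young hosts. Aged 50 and young 36 stood apart, with 21249 and 36946 CPM of summed seminal vesicle markers, against 0.554 to 17.1 CPM in the other 6 tumours. Aged 51 held 152 CPM of skeletal muscle markers, against 9.91 to 39.2 CPM elsewhere.

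Of the 23 Mmp genes, 10 lie side by side on chromosome 9 in a cluster of 427072 bp (GRCm38, 7272514 to 7699585). In order along the chromosome they were Mmp13, Mmp12, Mmp1b, Mmp3, Mmp1a, Mmp10, Mmp8, Mmp27, Mmp20 and Mmp7. The promoters of many of these genes are textbook targets of AP-1, a dimer of Fos and Jun proteins. Its sites, often close to a TATA box, were searched for here as TGANTCA, where N is any base. Whether AP-1 binds every such form was not tested. RefSeq promoter windows of GRCm38.p6, running from 250 bases before to 50 bases after the start, were at hand for 36 of the 51 members, including all 10 cluster genes. The 15 members without a window, among them Mmp9, Mmp2 and Adamts4, were not searched. The letters TGANTCA, which read the same on both strands, stood in the windows of 8 of the 10 cluster genes and of 0 of the other 26 members, against 8.97% of all 27025 genes with a window. TATAAA in the gene's own orientation stood in 8 of the 10 cluster genes and 3 of the other 26 members, against 9.77% of all genes. The same 8 cluster genes held both, against 1.18% of all genes, and the pair without a TGANTCA match was Mmp8 and Mmp27. Mmp12 and Mmp7 lacked both in another of their windows. The distance from the first base of the TGANTCA match to the start ran from 35 bases in Mmp13 to 95 bases in Mmp20. That of TATAAA was 7 bases in Mmp3 and -4 bases, after the start, in Mmp12. The 110 bases just upstream of the RefSeq start are shown for 5 cluster genes with a match and for Mmp8, which had none. The 5 are the highest-expressed ones (Mmp3, Mmp7 and Mmp10), the collagenase gene Mmp13, and Mmp1b, a relative of the human interstitial collagenase. Capitals mark TGANTCA and TATAAA, and each sequence is written 5′ to 3′ on the gene's strand.
Mmp13 (chr9:7272404-7272513, plus strand): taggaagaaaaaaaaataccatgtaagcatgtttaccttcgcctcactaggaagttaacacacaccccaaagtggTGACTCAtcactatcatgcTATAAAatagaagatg
Mmp3 (chr9:7445712-7445821, plus strand): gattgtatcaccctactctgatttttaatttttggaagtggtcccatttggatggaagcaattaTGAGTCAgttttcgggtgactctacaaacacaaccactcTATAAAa
Mmp10 (chr9:7502232-7502341, plus strand): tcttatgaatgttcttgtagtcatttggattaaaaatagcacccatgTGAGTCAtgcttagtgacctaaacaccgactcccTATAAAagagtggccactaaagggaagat
Mmp7 (chr9:7691980-7692089, plus strand): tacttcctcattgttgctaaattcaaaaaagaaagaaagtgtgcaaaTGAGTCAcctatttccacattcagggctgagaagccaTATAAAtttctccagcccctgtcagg
Mmp1b (chr9:7388027-7388136, minus strand): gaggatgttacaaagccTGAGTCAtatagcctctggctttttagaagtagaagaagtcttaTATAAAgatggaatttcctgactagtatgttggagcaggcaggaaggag
Mmp8 (chr9:7558319-7558428, plus strand): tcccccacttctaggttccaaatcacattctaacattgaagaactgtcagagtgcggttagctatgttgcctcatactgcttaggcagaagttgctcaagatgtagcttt
These matches are letters in a window and say nothing about whether the factor was bound in these tumours. Mmp13 held the form TGACTCA, Mmp20 the form TGAATCA and the other 6 the form TGAGTCA.

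The families covered a wide range of levels, which are compared between genes as FPKM, the deposited values per length of transcript. At least 1 fragment was counted in all 8 tumours for 47 of the 51 members. The median over the 8 tumours reached 1 FPKM in 33 members, 10 FPKM in 12 and 100 FPKM in 3. Those 3 were Mmp14 (253 FPKM), the membrane-bound collagenase that also activates the proenzyme of Mmp2, Timp2 (172 FPKM), the inhibitor that takes part in that activation, and Timp1 (153 FPKM), a secreted inhibitor of most matrix metalloproteinases. The ranges of all 3 over the tumours overlapped, at 174 to 303, 148 to 308 and 77.7 to 261 FPKM. Next came the stromelysin Mmp3 (67.3 FPKM) and the matrilysin Mmp7 (64.7 FPKM), whose ranges of 40.2 to 192 and 0.255 to 469 FPKM also overlapped. Mmp23 (29.2 FPKM), Timp3 (24.2 FPKM), Adamts1 (17.3 FPKM), Mmp2 (16.7 FPKM), Adamts2 (14.6 FPKM), Adamts4 (11.5 FPKM) and Mmp11 (11.1 FPKM) made up the rest of the 12. At the other end Mmp21 had at most 3 fragments in every tumour.

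Summed over each family, Mmp genes came to 396, 617, 861 and 510 FPKM in aged hosts, against 601, 448, 585 and 389 FPKM in young hosts. The Timp sum was 377 ± 55.6 FPKM in aged hosts and 390 ± 83.4 FPKM in young hosts (SD, n = 4 each). The Adamts sum was 51.3, 76.0, 64.2 and 76.9 FPKM in aged hosts, against 77.6, 75.3, 95.1 and 95.5 FPKM in young hosts. Only aged 47 and aged 51 reached the lower end of the young range in the Adamts sum, whereas the Mmp and Timp sums overlapped broadly. Mmp14 alone made up 24.9 to 59.5% of the Mmp sum in aged hosts and 39.3 to 69.2% in young hosts. Timp1 and Timp2 together made up 90.1 to 97.2% of the Timp sum in aged hosts and 89.2 to 95.3% in young hosts. The ratio of the Timp sum to the Mmp sum was 0.413 to 0.795 in aged hosts and 0.569 to 1.03 in young hosts, with the lowest value in aged 50.

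**Figure D1:**
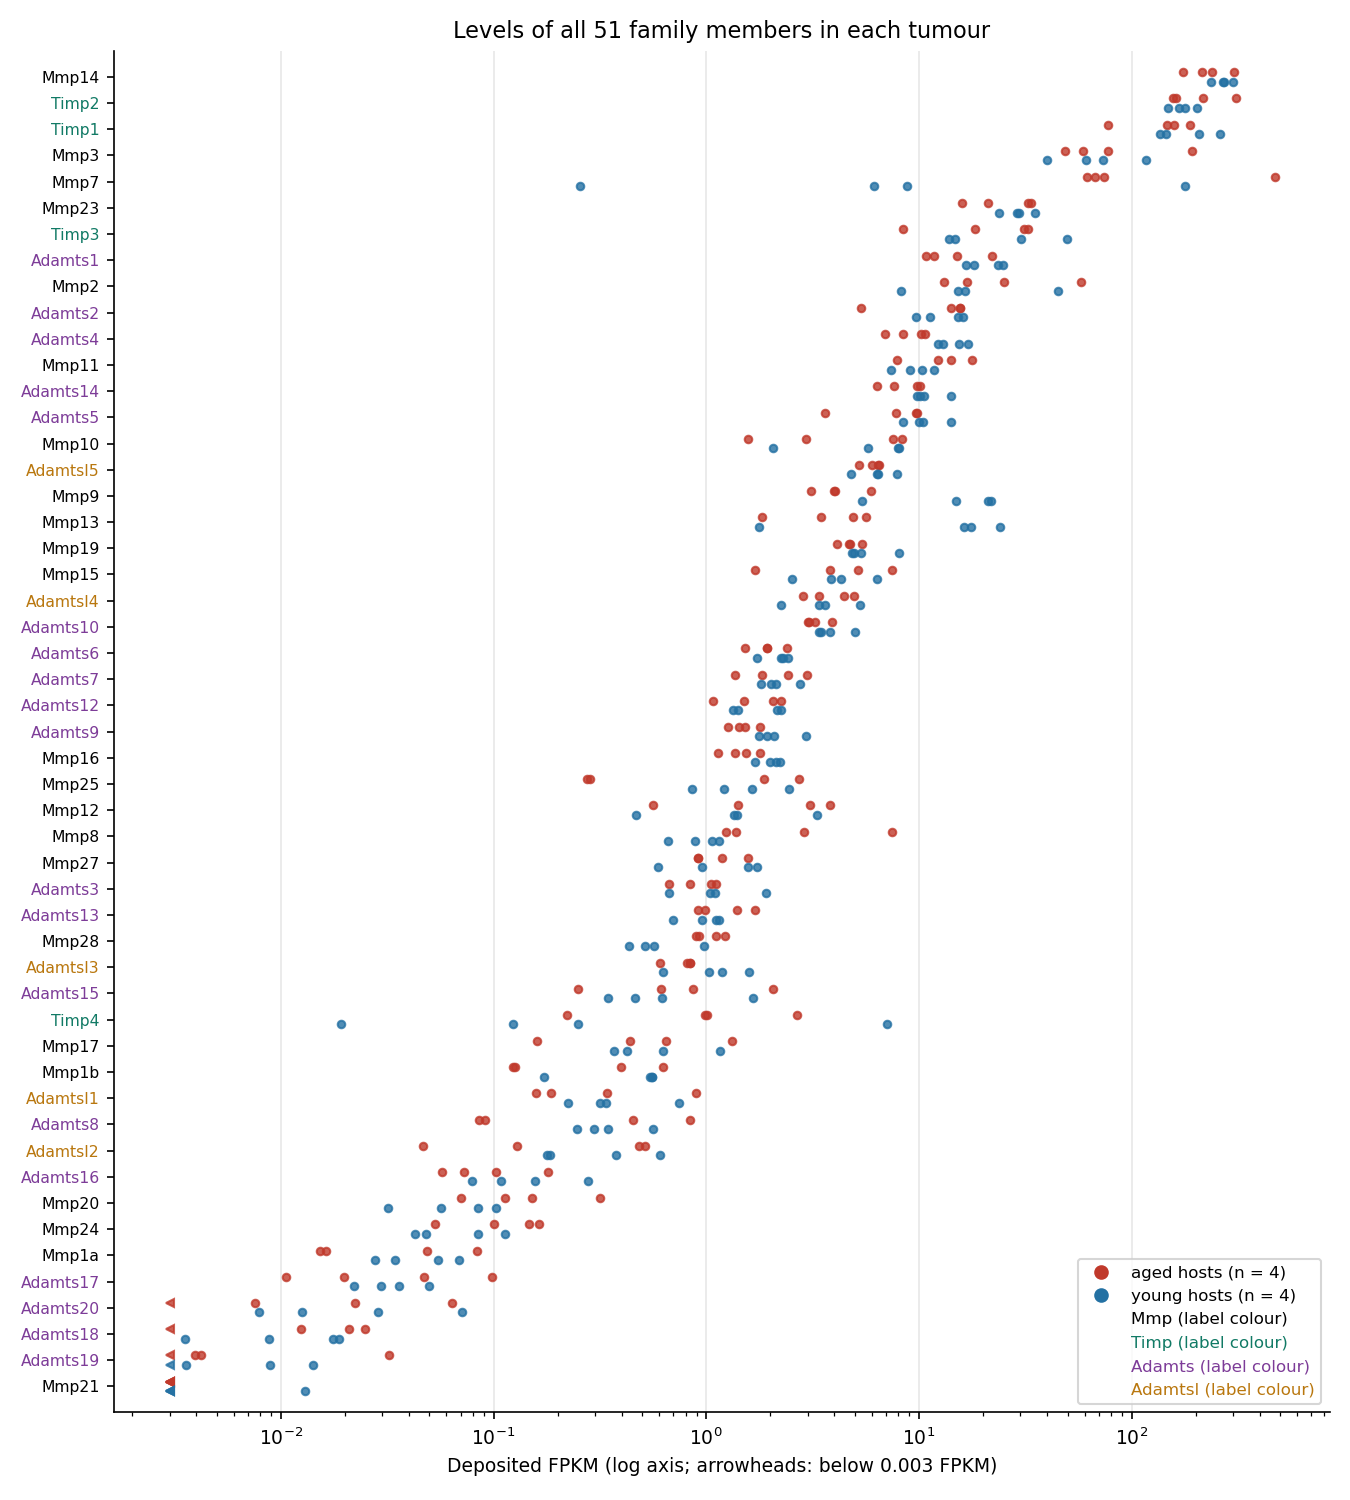
Deposited FPKM (log axis) of all 51 members in each tumour, 4 aged hosts and 4 young hosts, ordered by the median over the 8 tumours; arrowheads mark values below 0.003 FPKM. Mmp14, Timp2 and Timp1 lead with medians of 253, 172 and 153 FPKM, and Mmp7 has the widest range, 0.255 to 469 FPKM.

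The comparison of aged with young hosts was made on fragment counts with edgeR's quasi-likelihood test, and 45 of the 51 members passed the filter on low counts. Mmp1a, Mmp21, Adamts17, Adamts18, Adamts19 and Adamts20 did not pass it. No member passed an adjusted p of 0.05 (edgeR, Benjamini-Hochberg over all 14575 genes tested), as was true of every gene tested (0%). The smallest adjusted p among the members was 0.773, for Mmp9. DESeq2 called 1 member, Mmp9 (adjusted p = 0.0012), against 0.295% of all genes, and limma voom called 0, against 0.0617%. In simulated data DESeq2 recovered more of the changed genes than edgeR or limma voom, but made 52 false calls, against 8 and 6. That simulation cannot tell whether the call of Mmp9 was false. At an unadjusted p under 0.05 edgeR had 7 of the 45 members (15.6%), against 4.99% of all genes. Of these 7, 5 were lower in aged hosts (2.66% of all genes), namely Mmp9, Mmp13, Mmp16, Adamts4 and Adamts9, and 2 were higher (2.34% of all genes), namely Mmp8 and Mmp28. The CPM of the 2 groups did not overlap in 2 of the 45 members (4.44%), against 3.4% of all genes, so that this share was near the background. They were Adamts4, lower in aged hosts (1.95% of all genes), and Mmp8, higher in aged hosts (1.45% of all genes).

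By the sign of the fold change, 30 of the 45 members (66.7%) were lower in aged hosts, against 44.7% of all genes. The median log2 fold change, aged minus young, was -0.15 over the members and 0.03 over all genes tested. That median was 0.01 by limma voom, with 21 of 45 members lower, and 0.02 without young 40, with 22 lower. Split by family, 11 of 21 Mmp genes (median -0.02), 3 of 4 Timp genes (median -0.33), 12 of 15 Adamts genes (median -0.24) and 4 of 5 Adamtsl genes (median -0.07) were lower by sign. Without aged 50 and young 36, 6 members had an unadjusted p under 0.05 (3 lower and 3 higher), against 5.33% of all genes. Without aged 51 as well there were 8 (4 lower and 4 higher), against 3.57% of all genes.

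**Figure D2:**
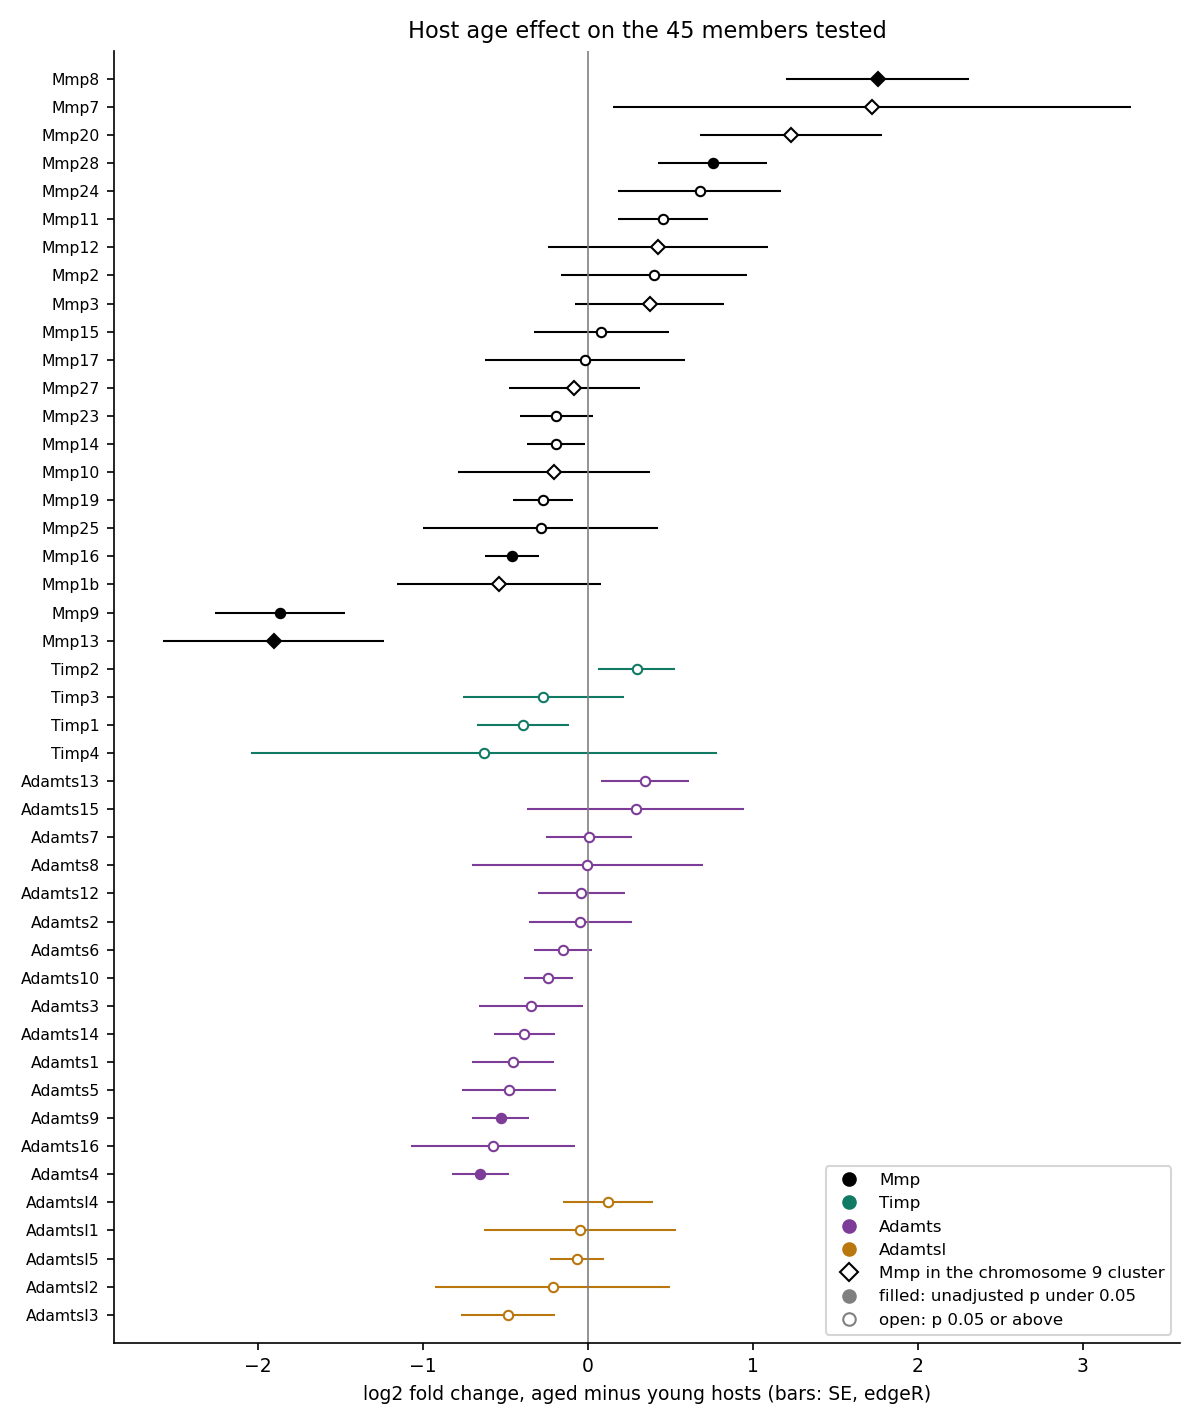
Log2 fold change, aged minus young hosts, of the 45 members tested, with the standard error from edgeR as a bar; filled symbols have an unadjusted p under 0.05 and diamonds are Mmp genes of the chromosome 9 cluster. Mmp13 and Mmp9 lie lowest at -1.91 and -1.87, Mmp8 highest at 1.76, and 12 of the 15 Adamts genes lie left of 0.

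Among the gelatinases, which cut denatured collagen and the type IV collagen of basement membranes, Mmp9 had the smallest p of all members. Mmp9 (chromosome 2, 164940326 to 164955850) had 12.6, 18.9, 9.82 and 12.7 CPM in aged hosts, against 17.1, 47.5, 66.7 and 69.2 CPM in young hosts. All 4 aged tumours lay below 3 of the young ones, and only young 36 fell within the aged range. The means were 13.5 ± 3.84 CPM in aged hosts and 50.1 ± 24.0 CPM in young hosts (SD, n = 4 each). The log2 fold change was -1.87 ± 0.39 (SE, edgeR adjusted p = 0.773). Without young 36 the edgeR adjusted p was 0.132. Mmp2 (chromosome 8, 92827290 to 92853421), the other gelatinase, had 39.7, 76.5, 175 and 51.4 CPM in aged hosts, against 46.3, 50.2, 137 and 25.05 CPM in young hosts. Aged 50 and young 40 were the high tumours of their groups, and the groups overlapped (log2 fold change 0.40 ± 0.56, SE). That estimate was -0.18 without aged 50. Summed smooth muscle markers were 179, 747, 1698 and 366 CPM in aged hosts, against 502, 652, 1201 and 761 CPM in young hosts, highest in the same 2 tumours, and their part in the Mmp2 values was not tested. Of the summed FPKM of both gelatinases, Mmp9 made up 23.4, 19.2, 5.11 and 19.2% in aged hosts, against 26.1, 47.6, 31.8 and 72.6% in young hosts. These shares did not overlap, but aged 46 and young 36 were close, and Mmp9 itself overlapped in CPM. The share also depends on Mmp2, and no background over all genes was computed for such a ratio.

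Osteoclast-type cells and some macrophages are known to make Mmp9 together with Acp5, an acid phosphatase, and Ctsk, a collagen-cutting cathepsin. The 8 osteoclast-type markers, which leave Mmp9 out, summed to 45.9, 64.8, 75.9 and 67.1 CPM in aged hosts, against 90.8, 154, 180 and 201 CPM in young hosts. Of the 6 of these markers that were tested, all 6 were lower in aged hosts by sign, against 44.7% of all genes. With an unadjusted p under 0.05 (edgeR) there were 4, against 2.66% of all genes that were lower with such a p. These markers were chosen with earlier results of these data known, so the counts are description only. Acp5 had the smallest p of all 14575 genes tested (edgeR unadjusted p = 2.9e-05, adjusted p = 0.427). None of the 8 was at 0 in all tumours, but Calcr and Oscar did not pass the filter, and Calcr had at most 6 fragments. Acp5 and Ctsk gave 86.4 and 76.9 CPM of the sum of 201 CPM in young 43. Acp5 had a log2 fold change of -1.60 ± 0.21 and Ctsk of -1.29 ± 0.34 (SE, n = 4 each, edgeR). Young 36 was the lowest young tumour in this sum as in Mmp9, and the part of these cells in the Mmp9 values was not tested. Summed macrophage markers were 1579 to 3447 CPM in aged hosts and 2396 to 3357 CPM in young hosts.

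The collagenases cut fibrillar collagen, and Mmp13 is the main one of rodents. Mmp13, the first gene of the chromosome 9 cluster, had 13.1, 15.1, 4.88 and 9.30 CPM in aged hosts, against 64.4, 43.3, 47.1 and 4.73 CPM in young hosts. The low young tumour was young 43, which had the highest Mmp9 level, so Mmp13 and Mmp9 did not share their order among young hosts. Its log2 fold change was -1.91 ± 0.67 (SE, n = 4 each), with an unadjusted p of 0.0195 and an adjusted p of 0.923 in edgeR's quasi-likelihood test. Mmp8, the collagenase stored in neutrophil granules, had 3.03, 18.4, 7.04 and 3.37 CPM in aged hosts, against 2.81, 1.63, 2.60 and 2.18 CPM in young hosts. Every aged tumour was above every young one, with aged 47 far above the rest and aged 46 and young 36 close to each other. The log2 fold change was 1.76 ± 0.55 (SE, edgeR adjusted p = 0.923) and ran from 0.96 to 2.01 when each tumour was left out in turn. Summed neutrophil markers, without Mmp8, were 82.0, 203, 71.8 and 65.1 CPM in aged hosts, against 62.7, 98.9, 85.6 and 39.8 CPM in young hosts. Of the 6 tested, 5 were higher in aged hosts by sign, against 8060 of all 14575 genes. An unadjusted p under 0.05 was found for 2, against 2.34% of all genes that were higher with such a p. They were Cxcr2 (log2 fold change 0.79 ± 0.27) and Retnlg (1.33 ± 0.48, SE, edgeR). The neutrophil markers too were chosen with earlier results of these data known. Aged 47 was the highest tumour in Mmp8 and in the sum, the sums overlapped, Elane was at 3 fragments or fewer in every tumour, and the part of neutrophils in Mmp8 was not tested. Ltf, which encodes lactoferrin and is also made by epithelium, gave 74.3 CPM of the sum in aged 47. Mmp1b, one of the pair of mouse relatives of the human interstitial collagenase, had 0.248, 1.25, 0.252 and 0.794 CPM in aged hosts, against 1.11, 1.11, 0.347 and 1.09 CPM in young hosts, and the groups overlapped. Mmp1b exons overlap those of Mmp12 on the opposite strand by up to 157 bases, and 7.93% of its 50-base stretches occur in Mmp12, which had a median of 10.2 CPM against 0.943 CPM for Mmp1b. Another 11.8% occur in Mmp1a, its lower relative, so the Mmp1b counts are uncertain.

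**Figure D3:**
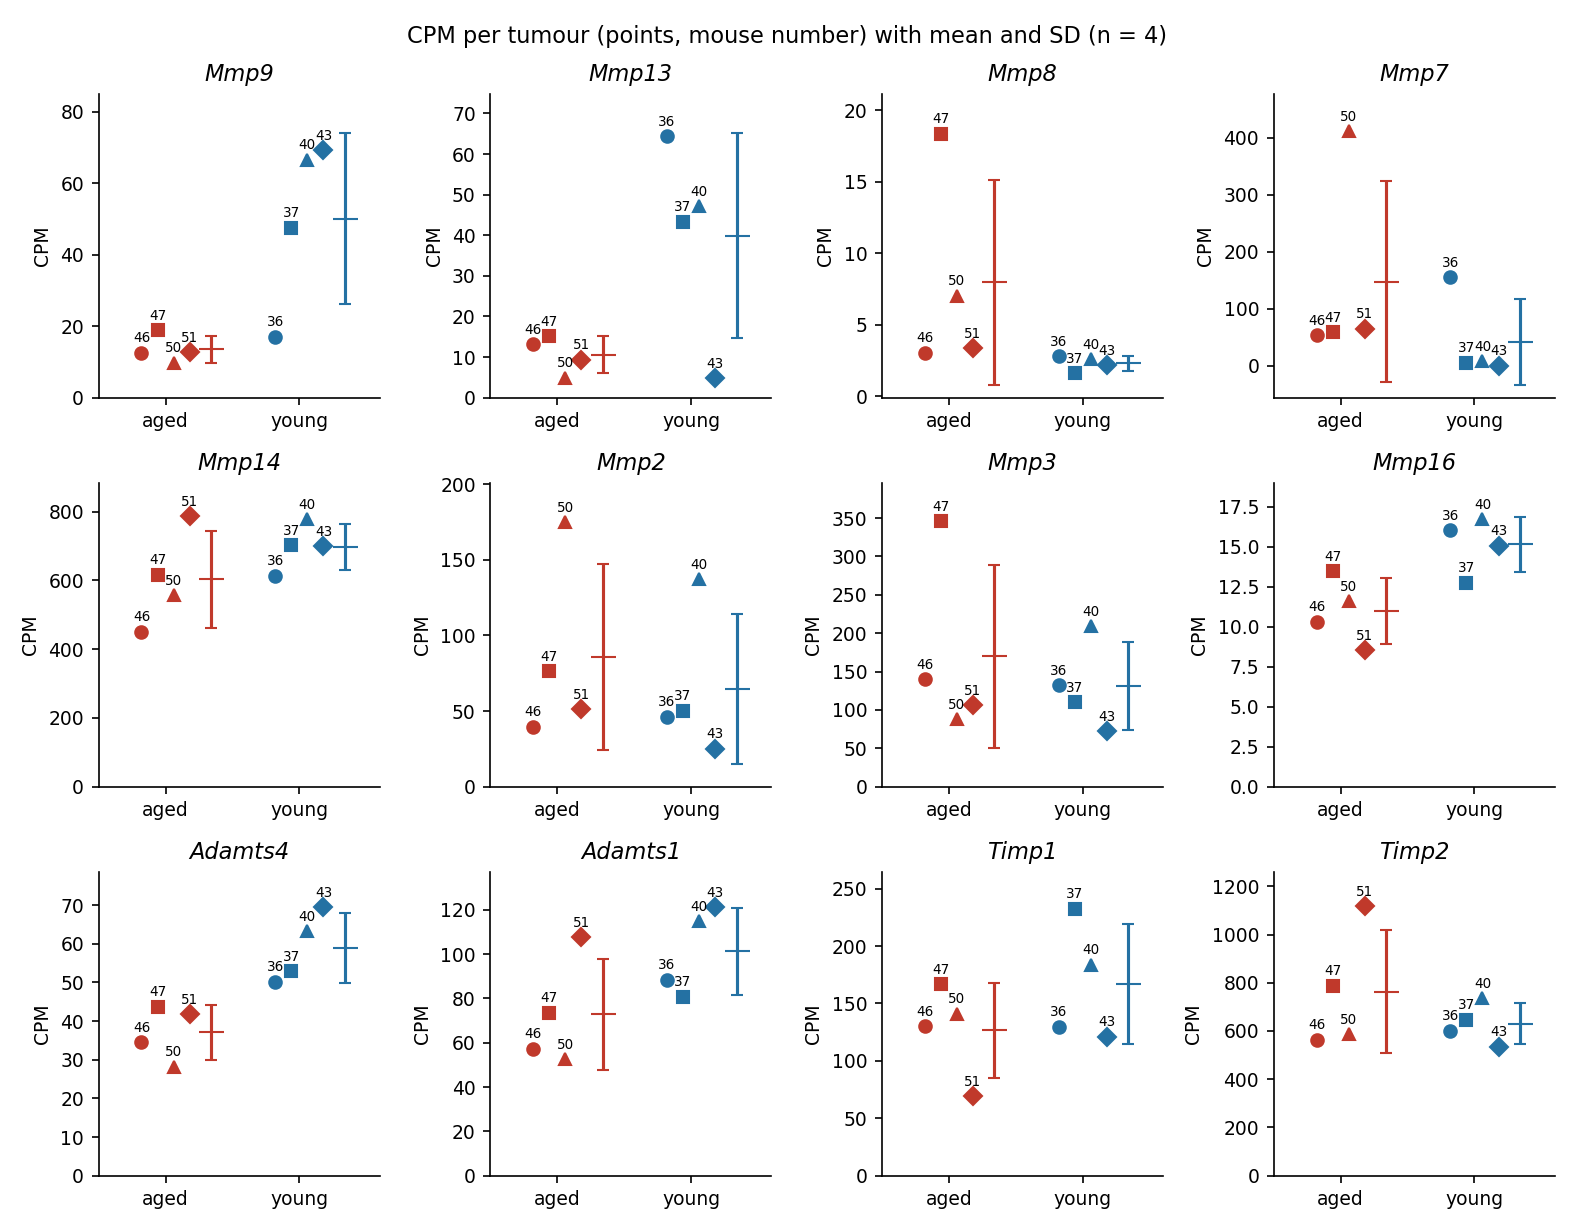
CPM of 12 members in each tumour, aged hosts on the left and young hosts on the right of each panel, with the mouse number at each point and the mean and SD (n = 4) beside it. Adamts4 and Mmp8 separate the groups without overlap, Mmp9 is at 9.82 to 18.9 CPM in aged hosts and 17.1 to 69.2 CPM in young hosts, and Mmp7 rests on aged 50 (412 CPM) and young 36 (156 CPM) for its highest values.

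The stromelysins Mmp3 and Mmp10 cut proteoglycans, laminin and fibronectin and can activate other proenzymes. Mmp3 had 140, 346, 87.8 and 106 CPM in aged hosts, against 132, 110, 209 and 72.3 CPM in young hosts. Aged 47 stood highest, the groups overlapped, and the log2 fold change of 0.38 ± 0.45 (SE, edgeR) was -0.19 without that tumour. Mmp10 had 14.4, 13.1, 2.72 and 5.13 CPM in aged hosts, against 13.8, 9.94, 14 and 3.58 CPM in young hosts, and again the groups overlapped (log2 fold change -0.21 ± 0.58, SE). Transcripts of Mmp3 and Mmp10 share 140 stretches of 50 bases, the read length, which is 7.99% of those of Mmp3 and 8.37% of those of Mmp10, so their counts may in part have been split or shared. Mmp3 exceeded Mmp10 9.37- to 31.1-fold in aged hosts and 9.24- to 19.4-fold in young hosts on the FPKM scale.

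Mmp7, the matrilysin of glandular epithelium, varied more between tumours than any other member detected in all 8. Its level was 54.3, 59.3, 412 and 64.98 CPM in aged hosts, against 156, 5.40, 7.73 and 0.224 CPM in young hosts. The highest tumour had 1840 times the CPM of the lowest, young 36 was the only young tumour above the 3 lower aged ones, and the log2 fold change was 1.73 ± 1.57 (SE, edgeR adjusted p = 0.923). Leaving out young 36 raised it to 5.06, with an unadjusted p under 0.05, and over all single tumours left out it ran from 0.48 to 5.06. Aged 50 and young 36, the highest in each group, were the same tumours that held the seminal vesicle markers. Summed markers of normal prostate secretory cells, without Mmp7, were 74.3, 50.1, 7889 and 271 CPM in aged hosts, against 2798, 11204, 30.7 and 6.27 CPM in young hosts. Young 43 was lowest in both, whereas young 37 was highest in these markers and had only 5.40 CPM of Mmp7. The sum in young 37 was mostly Sbp (7523 CPM) and Spink1 (3580 CPM). Other markers of the list were uneven there, with 3.66 CPM of Pbsn, 0.259 CPM of Tgm4 and 63.6 CPM of Azgp1. The part of host glandular tissue in the Mmp7 values was not tested.

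**Figure D4:**
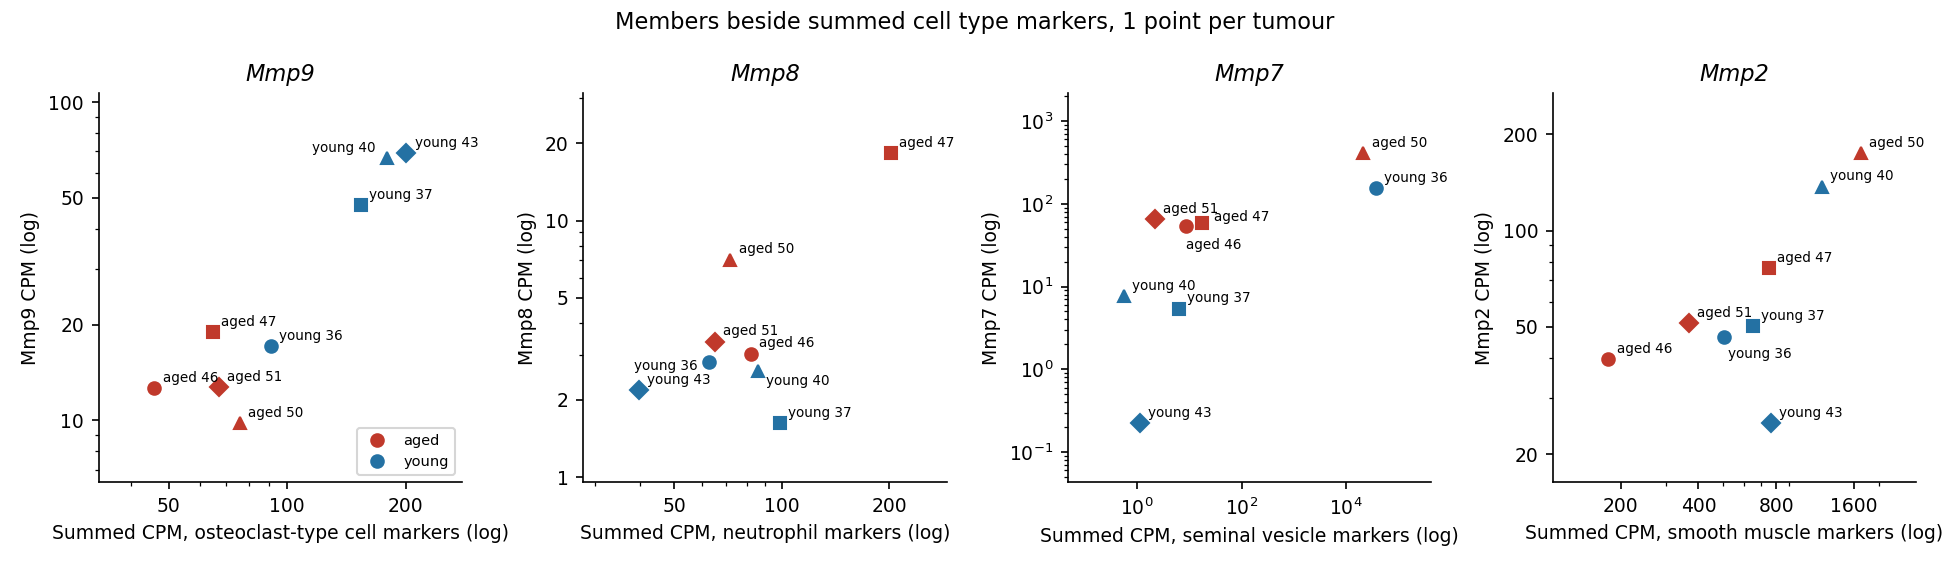
CPM of Mmp9, Mmp8, Mmp7 and Mmp2 (vertical, log axis) against the summed CPM of osteoclast-type, neutrophil, seminal vesicle and smooth muscle markers (horizontal, log axis), 1 point per tumour in aged and young hosts. Young 37, 40 and 43 are high in both Mmp9 and osteoclast-type markers, aged 47 is high in Mmp8 and neutrophil markers, and aged 50 and young 36 are high in Mmp7 and seminal vesicle markers.

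Mmp12, the elastase of macrophages, had 22.1, 27.7, 10.2 and 4.07 CPM in aged hosts, against 24.0, 9.80, 10.1 and 3.36 CPM in young hosts, and the groups overlapped. Mmp20, the enamel protease, was low, with 0.372, 0.230, 1.04 and 0.496 CPM in aged hosts, against 0.104, 0.185, 0.277 and 0.336 CPM in young hosts (log2 fold change 1.23 ± 0.55, SE, edgeR unadjusted p = 0.052). Mmp27 had 1.52, 2.59, 1.96 and 1.52 CPM in aged hosts, against 2.60, 1.59, 2.88 and 0.98 CPM in young hosts, and the groups overlapped. Mmp28, a secreted enzyme also called epilysin, had 2.85, 2.36, 3.14 and 2.28 CPM in aged hosts, against 1.32, 1.11, 2.50 and 1.46 CPM in young hosts. It was higher in aged hosts save for young 40 (log2 fold change 0.76 ± 0.33, SE, edgeR unadjusted p = 0.048, adjusted p = 0.923). Its exons overlap those of 1700020L24Rik on the opposite strand by up to 466 bases. That gene had a median of 1.23 CPM, and since the strand setting of the counting is not given in the sources used here, their reads may not be told apart.

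Over the whole cluster, 9 genes were tested, of which 5 were higher and 4 lower in aged hosts by sign, with a median log2 fold change of 0.38 that ran from -0.19 to 0.53 when single tumours were left out. The cluster sum was 158, 286, 527 and 143 FPKM in aged hosts, against 289, 93.0, 155 and 46.9 FPKM in young hosts. Mmp3 and Mmp7 together gave 88.2 to 98.2% of that sum in aged hosts and 72.5 to 86.6% in young hosts. Mmp13 and Mmp8 had the lowest and the highest log2 fold change of the cluster, and no cluster gene passed the adjusted threshold. A few genes on either side of the cluster are given for scale. Dcun1d5, on one side, had a median of 3669 FPKM (1021 to 6733) and Birc2 and Yap1, on the other side, had medians of 310 and 839 FPKM. Within the cluster the medians ran from 0.041 FPKM (Mmp1a) to 67.3 FPKM (Mmp3), with a median over the 10 genes of 1.30 FPKM, against 4.07 FPKM over the 13 Mmp genes elsewhere.

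**Figure D5:**
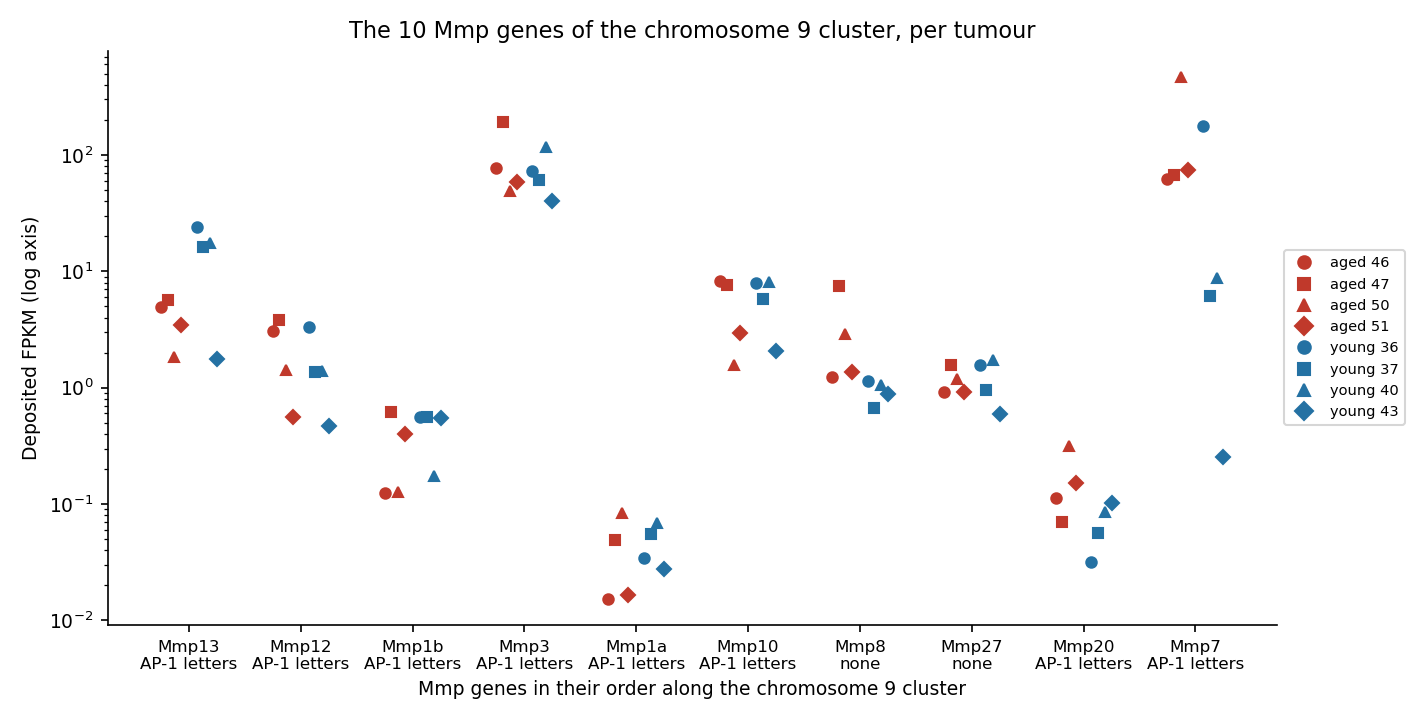
Deposited FPKM (log axis) of the 10 Mmp genes of the chromosome 9 cluster in their order along the chromosome, aged hosts to the left of young hosts for each gene, with the presence of TGANTCA in the promoter window under each name. Mmp3 and Mmp7 have the highest medians over the 8 tumours (67.3 and 64.7 FPKM), although Mmp7 lies below Mmp13 in young 37, 40 and 43, and Mmp8 and Mmp27 are the genes without the letters.

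The membrane-bound Mmp genes (Mmp14, Mmp15, Mmp16, Mmp17, Mmp24 and Mmp25) were lower in aged hosts by sign in 4 of 6, against 44.7% of all genes. Of these genes 1 had an unadjusted p under 0.05, against 4.99% of all genes. Mmp14 had 451, 617, 557 and 788 CPM in aged hosts, against 613, 702, 777 and 699 CPM in young hosts. It varied 1.75-fold over the tumours, the groups overlapped, and the log2 fold change was -0.19 ± 0.17 (SE, edgeR). Mmp16, another membrane-bound activator of Mmp2, had 10.3, 13.5, 11.6 and 8.54 CPM in aged hosts, against 16.1, 12.8, 16.7 and 15.1 CPM in young hosts. Only young 37 lay within the aged range (log2 fold change -0.46 ± 0.16, SE, edgeR unadjusted p = 0.0201, adjusted p = 0.923). Mmp23, which is held in the membrane by its amino end, was at 22.8 to 48.1 CPM in aged hosts and 34.03 to 50.4 CPM in young hosts. Mmp11, a stromelysin of tumour fibroblasts, averaged 29.3 ± 9.23 CPM in aged hosts and 21.7 ± 4.21 CPM in young hosts (SD, n = 4 each; log2 fold change 0.46 ± 0.27, SE).

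None of the 4 inhibitors reached an unadjusted p under 0.05. Timp1 had 130, 167, 141 and 69.2 CPM in aged hosts, against 130, 233, 184 and 121 CPM in young hosts (log2 fold change -0.39 ± 0.28, SE). Timp2 had 564, 788, 586 and 1116 CPM in aged hosts, against 601, 647, 736 and 535 CPM in young hosts (log2 fold change 0.30 ± 0.23, SE). Aged 51 was the lowest tumour for Timp1 and the highest for Timp2, and both pairs of groups overlapped. Timp3 had 39.2, 147, 152 and 85.5 CPM in aged hosts, against 141, 68.9, 233 and 64.6 CPM in young hosts, and its log2 fold change of -0.27 ± 0.49 (SE) was 0.16 without young 40. Timp3 exons overlap those of Syn3 on the opposite strand by up to 1733 bases, and Syn3 had a median of 2.98 CPM. Timp4 was low and uneven, at 0.403, 1.84, 4.85 and 1.79 CPM in aged hosts, against 0.451, 12.8, 0.0347 and 0.224 CPM in young hosts. Young 37 was the highest of all tumours, young 40 and young 43 were the lowest, and young 36 was close to aged 46. The Timp4 log2 fold change was -0.63 ± 1.41 (SE) with all tumours, 3.17 without young 37 and 1.78 by limma voom.

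The ADAMTS proteases that cut aggrecan and versican (Adamts1, Adamts4, Adamts5, Adamts8, Adamts9, Adamts15 and Adamts20) included both Adamts genes with low p-values. Of the 6 tested, 5 were lower in aged hosts by sign, against 44.7% of all genes, with a median log2 fold change of -0.47. Adamts4 and Adamts9 had an unadjusted p under 0.05, against 2.66% of all genes that were lower with such a p. Adamts4 (chromosome 1, 171250129 to 171262267) had 34.6, 43.7, 28.2 and 41.8 CPM in aged hosts, against 50.2, 52.9, 63.2 and 69.5 CPM in young hosts. All 4 aged tumours lay below all 4 young ones. The means were 37.1 ± 7.09 CPM in aged hosts and 59.0 ± 8.99 CPM in young hosts (SD, n = 4 each). The log2 fold change was -0.65 ± 0.17 (SE, edgeR unadjusted p = 0.0043, adjusted p = 0.923). Adamts9, which cuts versican in development, had 12.98, 18.2, 14.5 and 15.5 CPM in aged hosts, against 18.1, 19.7, 29.98 and 21.3 CPM in young hosts, where young 36 and aged 47 were level (log2 fold change -0.53 ± 0.17, SE, edgeR adjusted p = 0.923).

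Adamts1, a versican protease made by stroma and vessels, had 57.3, 73.5, 52.7 and 108 CPM in aged hosts, against 88.5, 80.9, 115 and 121 CPM in young hosts. Aged 51 alone lay within the young range (log2 fold change -0.45 ± 0.25, SE, edgeR). Adamts5, the main aggrecanase of mouse cartilage, had 29.2, 79.0, 63.1 and 78.4 CPM in aged hosts, against 68.5, 84.9, 81.3 and 114 CPM in young hosts. Aged 46 was far below the rest, the groups overlapped through young 36, and the log2 fold change was -0.48 ± 0.29 (SE). Summed over the proteoglycan-cutting genes, the level was 25.4, 38.6, 29.9 and 44.2 FPKM in aged hosts, against 41.5, 42.7, 54.2 and 58.6 FPKM in young hosts. Only aged 51 reached into the young range of that sum.

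The procollagen N-proteinases, which remove the amino propeptide of fibrillar collagens, were all 3 lower in aged hosts by sign, against 44.7% of all genes. None of them had an unadjusted p under 0.05. Adamts2 had 48.7, 141, 128 and 142 CPM in aged hosts, against 138, 102, 147 and 87.7 CPM in young hosts. The low value of aged 46 apart, the aged tumours lay within the young range, and the log2 fold change of -0.04 ± 0.31 (SE) was 0.20 without aged 46. Adamts14 had 50.97, 52.2, 39.5 and 32.9 CPM in aged hosts, against 50.6, 54.8, 52.2 and 73.4 CPM in young hosts (log2 fold change -0.38 ± 0.18, SE). Adamts3 was at 5.14 to 8.53 CPM in aged hosts and 5.12 to 14.7 CPM in young hosts. The genes of their procollagen substrates that were tested were also lower in aged hosts by sign in 5 of 5, with a median log2 fold change of -0.45 and none at an unadjusted p under 0.05. Col3a1 had 1948, 3382, 4010 and 3302 CPM in aged hosts, against 3142, 4216, 6369 and 3751 CPM in young hosts. Col1a1 had a log2 fold change of -0.49 ± 0.28 (SE, edgeR). The summed fibroblast markers, whose ranges were given above, were lowest in aged 46, as were Adamts2, Adamts5, Timp3 and Mmp14. Col1a1 and Col3a1 are part of that sum and gave 2474 and 1948 of its 4871 CPM in aged 46. Aged 46 was also lowest in the summed markers of macrophages, osteoclast-type cells, endothelial cells, smooth and skeletal muscle and T cells, but not of neutrophils or epithelium. The part of fibroblasts or of other host cells in these values was not tested.

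Adamts12, which cuts the cartilage protein COMP, had 9.20, 12.9, 17.5 and 19.2 CPM in aged hosts, against 11.4, 12.1, 19.3 and 18.4 CPM in young hosts, a log2 fold change of -0.04 ± 0.26 (SE, edgeR). The groups covered almost the same range. Adamts13, the protease of von Willebrand factor, was at 4.61 to 8.53 CPM in aged hosts and 3.50 to 5.79 CPM in young hosts (log2 fold change 0.35 ± 0.27, SE). Among the ADAMTS-like genes Adamtsl5 had the highest median level (6.37 FPKM), with 21.8, 21.4, 20.1 and 17.4 CPM in aged hosts, against 21.5, 16.1, 21.2 and 26.4 CPM in young hosts. Adamtsl4, which encodes a binder of fibrillin microfibrils, had 13.7, 17.8, 11.6 and 19.9 CPM in aged hosts, against 14.7, 13.7, 21.3 and 9.07 CPM in young hosts, and in both genes the groups overlapped. Adamtsl3 had 6.13, 6.13, 4.43 and 5.89 CPM in aged hosts, against 4.58, 7.47, 8.59 and 11.5 CPM in young hosts (log2 fold change -0.49 ± 0.29, SE). Over the 20 Adamts and Adamtsl genes tested, aged 46 was the lowest tumour in 8 (40%, against 19.3% of all genes), young 43 the highest in 7 (35%, against 16.97%) and young 40 the highest in 5 (25%, against 6.03%).

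Among genes that act around these families none passed an adjusted p of 0.05, and the counts at an unadjusted p under 0.05 stand against 4.99% of all genes. The plasminogen system, which activates several Mmp proenzymes, had 0 of 7 tested genes at an unadjusted p under 0.05. Its activator Plau, the urokinase, had a log2 fold change of -0.27 ± 0.18 (SE, edgeR). Membrane regulators and activators of metalloproteinases had 0 of 13. Among the ADAM sheddases 1 of 12 (8.33%) had such a p, namely Adam17, which releases TNF and EGF receptor ligands, with 83.8, 107, 105 and 95.6 CPM in aged hosts, against 107, 115, 135 and 133 CPM in young hosts. Its groups did not overlap, as in 1.95% of all genes with the aged group lower, though aged 47 and young 36 were almost level (log2 fold change -0.32 ± 0.11, SE). Other matrix proteases had 2 of 16 (12.5%), both lower in aged hosts, namely Ctsk and Tll1, a tolloid proteinase that trims the carboxyl propeptide of procollagens (log2 fold change -0.74 ± 0.30, SE).

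Among substrates of ADAMTS enzymes 2 of 10 (20%) had an unadjusted p under 0.05, against 4.99% of all genes. The small proteoglycan Bgn had 1020, 1396, 1745 and 1249 CPM in aged hosts, against 1705, 1999, 2078 and 2115 CPM in young hosts (log2 fold change -0.54 ± 0.15, SE, edgeR). Vwf, the clotting factor that Adamts13 cuts, had 19.4, 40.8, 32.8 and 40.04 CPM in aged hosts, against 13.6, 17.7, 26.4 and 11.9 CPM in young hosts (log2 fold change 0.95 ± 0.29, SE). Each had 1 tumour across the boundary, aged 50 for Bgn and aged 46 for Vwf. Of 9 basement membrane genes 2 (22.2%) had such a p. The laminin chain Lama4 was lower in every aged tumour (41.8 to 69.1 CPM in aged hosts, 77.5 to 122 CPM in young hosts), as were 1.95% of all genes. The laminin chain Lama5 was higher in every aged tumour (36.1 to 45.9 CPM in aged hosts, 19.8 to 35.6 CPM in young hosts), as were 1.45% of all genes. Of 9 genes for AP-1 subunits 7 (77.8%) were lower in aged hosts by sign, against 44.7% of all genes, with a median log2 fold change of -0.32, against 0.03 over all genes. Fosl2 (log2 fold change -0.42 ± 0.16, SE) had the only unadjusted p under 0.05 among them (11.1%), and Junb (-0.62 ± 0.28, SE) had the next smallest p.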

How the data were processed

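RNA from 8 tumours was read as 50 bp paired ends from TruSeq mRNA libraries (stranded, per the series' design text). Build GRCm38 (mm10) and the tools bcl2fastq, TopHat2 2.0.12 and Picard 2.7.1 are named in the submitters' processing notes. Which program and annotation gave the counts, and whether strand was used, is not given in the sources used here. The authors deposited a fragment count per gene, an FPM value that equals CPM, and an FPKM value that equals that CPM over the listed transcript length in kilobases. The test on fragment counts was that of edgeR 4.0.16 under R 4.3.3 (filterByExpr with a minimum count of 10 and a minimum total of 15, TMM factors, robust quasi-likelihood fit with host age as its term). Fold changes are aged minus young, with SE equal to the fold change over the square root of F. P-values were adjusted by Benjamini-Hochberg over all 14575 genes tested. DESeq2 1.42.0 and limma 3.58.1 (voom with sample weights) were alternatives, beside other scalings and filters and tumours left out. The scripts were tested on simulated data, in which 100 of 14575 genes were changed 2-fold and 100 changed 4-fold. DESeq2 recovered 57 and 77 of these with 52 false calls. EdgeR recovered 37 and 64 with 8 false calls, and limma voom 31 and 62 with 6.

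Values per tumour are given for the members listed as Mmp2, Mmp3, Mmp9, Mmp13, Mmp14, Timp1 to Timp4, Adamts1, Adamts2, Adamts4, Adamts5 and Adamts12, the tested cluster genes, the 8 smallest p-values, the 3 highest medians per family, and members whose groups did not overlap. Other members, named as ranges, were chosen for their role. The members, the other gene lists and the markers were chosen with earlier results of these data known. Context genes are among the 2 with the smallest p per list, and some results on single genes are not reported here. 27 symbols that had become dates were restored by Entrez number. Overlaps come from GENCODE on GRCm38, and promoters from RefSeq.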

Additional observations from a re-analysis of the deposited data

Results flagged for a closer look

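In 62 groups of 4 tumours, 6 values lay far from the other 3 by Dixon's test at the 95% level, which chance gives in about 1 group in 20. Mmp7 did so in both groups, with 412 CPM in aged 50, where the remaining aged tumours had 54.3 to 64.98 CPM, and 156 CPM in young 36, where the remaining young tumours had 0.224 to 7.73 CPM. Adamts2 had 48.7 CPM in aged 46 and 128 to 142 CPM in its group otherwise. Adamtsl3 had 4.43 CPM in aged 50 and 5.89 to 6.13 CPM in its group otherwise. Mmp1b had 0.347 CPM in young 40 and 1.09 to 1.11 CPM in its group otherwise. Timp4 had 12.8 CPM in young 37 and 0.0347 to 0.451 CPM in its group otherwise.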

How the results depend on the processing

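DESeq2 called 43 of all genes and limma voom 9, against 0 with edgeR, and DESeq2 called 1 member, Mmp9 (log2 fold change -1.86). Of 484 values for 27 members under 18 alternatives, 452 kept their direction and their side of the threshold, 31 changed sign and 1 passed the threshold, and 16 members had no change of sign. DESeq2 gave no p for Mmp7, and Mmp20 did not pass a filter of 1 CPM in 4 tumours, so those values are not among them. No value that changed sign had passed the adjusted threshold. With limma voom the log2 fold change was 0.0168 for Adamts2, 0.0157 for Adamtsl5, 0.15 for Mmp1b, 0.0562 for Mmp27, 0.0134 for Timp3 and 1.78 for Timp4. Without aged 50 and young 36 it was 0.0252 for Adamts2, 0.30 for Mmp10, -0.29 for Mmp2 and 0.10 for Mmp27, and without aged 51 as well it was 0.0608 for Adamtsl5, 0.63 for Mmp10, -0.25 for Mmp2 and 0.21 for Mmp27. Leaving out 1 tumour at a time gave ranges of -0.23 to 0.11 for Adamts12, -0.20 to 0.20 for Adamts2, -0.0516 to 0.33 for Adamtsl4, -0.18 to 0.049 for Adamtsl5, -0.59 to 0.10 for Mmp10, -0.18 to 1.04 for Mmp2, -0.31 to 0.11 for Mmp27, -0.19 to 0.67 for Mmp3, -0.49 to 0.16 for Timp3 and -1.32 to 3.17 for Timp4. The cause of these changes was not tested. The number of members at an unadjusted p under 0.05 was 6 to 8 when single tumours were left out, and the median log2 fold change over members ran from -0.28 to 0.02 over all alternatives. Mmp1a and Mmp21, with at most 6 fragments in any tumour, are limited by depth. No paired analysis was possible because the aged and young hosts carry different mouse numbers.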
